A study of Mus musculus with 8 samples.

Results

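The HoxB cluster was followed in the postnatal uterus of mice that carried a conditional deletion of *Ezh2*. The members were the 10 HoxB genes named *Hoxb1* to *Hoxb9* and *Hoxb13*, found by gene symbol among the 27179 genes counted in every library, and all 10 were in the count files. Of these, 8 passed the filter on low counts and were among the 16658 genes tested, whereas *Hoxb1* and *Hoxb13* did not. RNA-seq was done on whole uteri at postnatal day 10 (PD10), with 4 control libraries (Ctrl, genotype Ezh2 f/f, floxed alleles without Cre) and 4 conditional knockout libraries (cKO, genotype Ezh2 f/f; Acre, in which *Amhr2*-Cre deletes the floxed alleles). Both groups therefore carried the floxed *Ezh2* alleles, and the groups differed by the Cre. *Amhr2*-Cre acts in cells that come from the mesenchyme of the Müllerian duct, so that a whole uterus also holds cells in which the Cre is not active. The library totals were 26234429 to 36685807 counts in Ctrl and 25287141 to 32658315 counts in cKO. Neither the labels nor the methods give pooling of animals, and nothing in them says more of the replicates than their numbers, so p-values measure the spread between these libraries.

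Hox genes encode transcription factors with a homeodomain, the DNA-binding fold coded by the homeobox. They lie in 4 clusters, HoxA to HoxD, that arose by duplication, and genes at matching places in different clusters form a paralogue group with a shared number. Within a cluster, low-numbered (anterior) genes are turned on earlier and nearer to the head than high-numbered (posterior) genes, and in the female reproductive tract the posterior HoxA genes are known to pattern the oviduct, uterus, cervix and vagina. EZH2 is the catalytic subunit of Polycomb repressive complex 2 (PRC2), which places the histone mark H3K27me3 on silent developmental genes, Hox clusters among them.

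The cluster lies on mouse chromosome 11 of the GRCm38 build. All 10 members are on the plus strand, in the order *Hoxb13*, *Hoxb9*, *Hoxb8*, *Hoxb7*, *Hoxb6*, *Hoxb5*, *Hoxb4*, *Hoxb3*, *Hoxb2* and *Hoxb1*, over 173.939 kb in the RefSeq annotation, of which 74.719 kb separate *Hoxb13* from *Hoxb9*. Each member holds 1 homeobox of 180 bases. Between members the homeoboxes were 50.6% to 88.9% identical, the closest pair being *Hoxb6* and *Hoxb7*. The longest run of bases identical between a *Hoxb3* transcript and a transcript of another Hox gene was 47 bases, shared with *Hoxd3*, and across the 10 members this length ranged from 17 bases (*Hoxb13* and *Hoxc9*) to 52 bases (*Hoxb4* and *Hoxa6*). How reads matching several genes were counted is not given in the sources used here.

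The sequence before the transcription start was held for 3 members in the RefSeq table of promoters (GRCm38.p6), and is shown for them because they stand at different levels in these uteri: *Hoxb8* was among the most abundant members, *Hoxb4* was the least abundant member tested, and *Hoxb1* was at or near 0. Each line gives the 250 bases upstream of the start on the plus strand, with every CpG dinucleotide in capitals. They lie at chr11:96281655-96281904 for *Hoxb8*, chr11:96318017-96318266 for *Hoxb4* and chr11:96365508-96365757 for *Hoxb1*.
Hoxb8 promoter: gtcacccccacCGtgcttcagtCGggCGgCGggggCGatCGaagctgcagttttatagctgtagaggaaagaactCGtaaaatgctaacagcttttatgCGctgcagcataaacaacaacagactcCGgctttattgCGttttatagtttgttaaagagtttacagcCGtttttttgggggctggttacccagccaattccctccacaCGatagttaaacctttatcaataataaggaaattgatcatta
Hoxb4 promoter: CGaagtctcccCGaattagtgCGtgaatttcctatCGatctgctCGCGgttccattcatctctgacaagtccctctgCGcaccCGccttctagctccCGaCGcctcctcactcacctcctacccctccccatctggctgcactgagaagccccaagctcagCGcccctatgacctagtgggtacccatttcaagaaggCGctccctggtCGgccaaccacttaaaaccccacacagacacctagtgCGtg
Hoxb1 promoter: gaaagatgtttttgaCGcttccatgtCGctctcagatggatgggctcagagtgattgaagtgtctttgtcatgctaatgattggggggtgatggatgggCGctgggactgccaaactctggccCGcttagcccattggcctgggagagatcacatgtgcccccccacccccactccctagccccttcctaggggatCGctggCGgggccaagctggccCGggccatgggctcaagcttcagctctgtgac
These windows held 12 CpG (*Hoxb8*), 14 CpG (*Hoxb4*) and 7 CpG (*Hoxb1*), against a median of 6 over 32851 promoters of the same length, and their GC content was 44.4%, 58.0% and 59.2%. The letters TATAAA, searched on both strands, were found in the *Hoxb8* window and in neither of the other two, and 12.4% of all promoter windows held them. These counts describe the sequence and say nothing of binding.

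*Ezh2*, the targeted gene, was measured in every library. Its normalized level was 49.5, 40.5, 54.7 and 35.4 CPM (TMM-normalized counts, scaled to the library size) in Ctrl replicates 1 to 4 and 30.4, 38.0, 40.7 and 38.0 CPM in cKO replicates 1 to 4. The groups overlapped, and the log2 fold change of cKO over Ctrl was -0.29 ± 0.13 (SE, n = 4 per genotype; edgeR quasi-likelihood adjusted p = 0.247). The counts cover the whole gene rather than the floxed part alone. In such bulk samples, fewer cells of a type and less RNA per cell cannot be told apart. Fat marker genes (10 genes such as *Adipoq* and *Plin1*, of which 9 were tested and 1, *Adrb3*, was called higher) had a summed level of 17.1 to 28.6 CPM in Ctrl. In cKO replicates 1 to 3 it was 122.7, 260.2 and 133.4 CPM, and in cKO replicate 4 it was 19.1 CPM. Markers of epithelium, stroma and smooth muscle were present in every library. The summed levels of all 14 marker lists overlapped between the genotypes, but in 4 of them (fat, stroma, *Amhr2*-Cre lineage, and nerve and Schwann) cKO replicates 1 to 3 all lay on the same side of the Ctrl range. The stroma sum was 12435 to 12546 CPM in these replicates, above the 8077 to 10578 CPM of Ctrl, and 9780 CPM in cKO replicate 4. Most of it came from the collagen genes *Col3a1* (mean 6287 CPM in Ctrl and 8063 CPM in cKO) and *Col1a1* (1557 and 2054 CPM). The means of *Dcn* (676 and 806 CPM) and *Lum* (162 and 188 CPM) were also higher in cKO. *Vim* was at 335 and 346 CPM, and *Pdgfra* was lower in cKO (402 and 369 CPM). The *Amhr2*-Cre lineage sum was 726 to 827 CPM in cKO replicates 1 to 3, below the 852 to 937 CPM of Ctrl, and 855 CPM in cKO replicate 4. Its genes did not move together. The mean of *Wnt5a* was 383 CPM in Ctrl and 285 CPM in cKO, and that of *Amhr2* 6.15 and 3.69 CPM. *Esr1* was at 386 and 358 CPM and *Emx2* at 138 and 141 CPM, neither of them called. The sum is thus no measure of the number of lineage cells. The nerve and Schwann sum was 18.7 to 23.2 CPM in cKO replicates 1 to 3, above the 15.3 to 16.2 CPM of Ctrl, and 15.8 CPM in cKO replicate 4. Of the lists other than fat, *Col3a1* (stroma), *Myh3* and *Tnnt3* (skeletal muscle) and *Sox10* (nerve) were called higher, and *Amhr2* and *Wnt5a* (Cre lineage) and *Ncr1* (immune) were called lower. Their part in the HoxB values was not tested. Of the 6 ovary markers, *Fshr* and *Zp3* had at most 3 counts in every library, but others were present. *Foxl2* was at 51.9 ± 3.5 CPM in Ctrl and 44.6 ± 5.8 CPM in cKO (SD, n = 4). *Inha* was at 4.71 ± 0.61 CPM in Ctrl and 7.15 ± 2.0 CPM in cKO, and *Gdf9* had 24 to 57 counts per library. The ovary sum was 54.8 to 62.4 CPM in Ctrl and 47.1 to 60.7 CPM in cKO.

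In control uteri, the HoxB cluster was expressed from *Hoxb2* to *Hoxb9* and was at or near 0 at both ends. Levels of different genes were compared per length, as normalized CPM per kb of exon. In this unit *Hoxb7* stood at 15.6 ± 1.3 (SD, n = 4), *Hoxb8* at 12.6 ± 1.1, *Hoxb6* at 8.40 ± 0.63 and *Hoxb3* at 7.88 ± 0.27. *Hoxb9* followed at 3.85 ± 0.24, *Hoxb2* at 3.08 ± 0.29, *Hoxb5* at 1.54 ± 0.32 and *Hoxb4* at 1.27 ± 0.13. The levels thus did not follow the order of the genes, since the pair *Hoxb5* and *Hoxb4*, with the lowest levels, lies between *Hoxb6* and *Hoxb3*. Neighbours in this order were separated in all Ctrl libraries except for *Hoxb6* and *Hoxb3*, and *Hoxb5* and *Hoxb4*, whose ranges overlapped. The order rests on the length correction: by CPM alone *Hoxb3*, the member with the longest exons of the 8 (4251 bases), ranked 1 and *Hoxb7* (1544 bases) ranked 3.

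**Figure D1:**
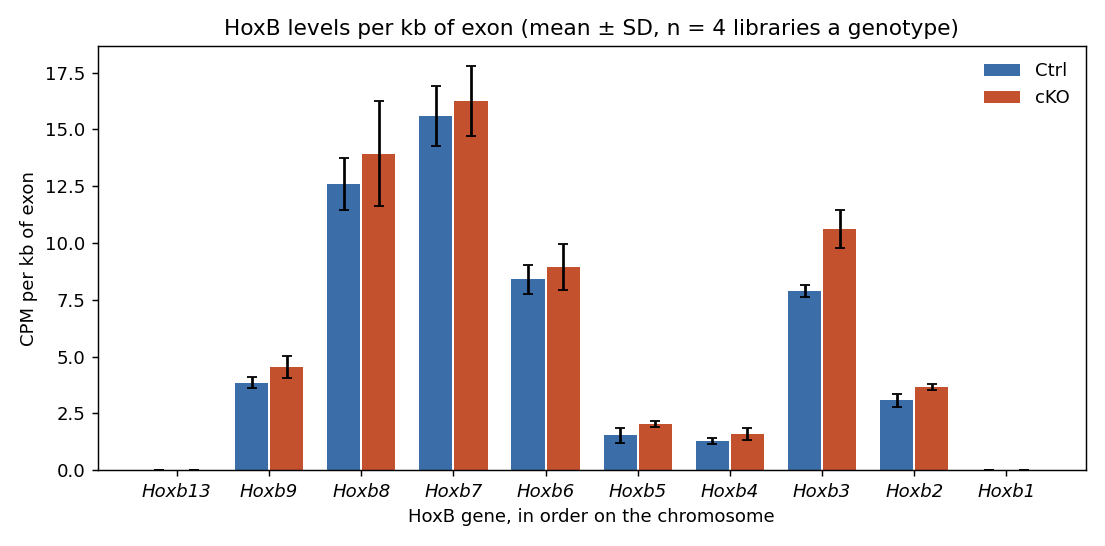
Level of each HoxB gene as TMM-normalized CPM per kb of exon (vertical axis) for the 10 genes in chromosomal order (horizontal axis), with bars for the mean of 4 Ctrl (blue) and 4 cKO (orange) libraries and black lines for the SD. Hoxb7 was highest (15.6 in Ctrl and 16.2 in cKO), Hoxb5 and Hoxb4 formed the low point between Hoxb6 and Hoxb3, and Hoxb13 and Hoxb1 were at or near 0.

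In cKO uteri the order of the means per kb differed at a single place. *Hoxb3* stood at 10.6 ± 0.82 CPM per kb (SD, n = 4) and *Hoxb6* at 8.94 ± 1.0, and every cKO library had a higher *Hoxb3* value than any cKO library had for *Hoxb6* (lowest *Hoxb3* value 10.01, highest *Hoxb6* value 9.92). In Ctrl their ranges were 7.64 to 8.22 and 7.74 to 9.001. The place depends on the exon lengths used, 4251 and 1964 bases: by CPM alone *Hoxb3* was above *Hoxb6* in Ctrl (33.5 against 16.5) and in cKO (45.1 against 17.6), and their order did not change. *Hoxb7* (16.2 ± 1.5) and *Hoxb8* (13.9 ± 2.3) overlapped in cKO, with a range of 12.3 to 17.3 for *Hoxb8*. The other members kept their places in the order.

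*Hoxb3* passed the test across all genes and was higher in cKO uteri. It encodes a transcription factor of the anterior part of the cluster, known for its part in hindbrain and pharyngeal development. Its level was 32.5, 33.9, 34.9 and 32.6 CPM in Ctrl and 50.1, 45.1, 42.8 and 42.6 CPM in cKO, from 876 to 1390 counts per library. Every cKO library lay above every Ctrl library, and cKO replicate 1 was the highest. The log2 fold change was 0.43 ± 0.067 (SE; 95% interval 0.29 to 0.58), a 1.35-fold rise, with an edgeR quasi-likelihood adjusted p of 0.00275. It ranked 160 by p-value among the genes tested. Thus 1 of the 8 tested members was called higher in cKO at an adjusted p under 0.05 (edgeR), against 2.62% of all genes tested, and no member was called lower, against 2.71% (5.34% in either direction). No member was among the differentially expressed (DE) genes, defined by an adjusted p under 0.05 together with a change of over 2-fold, against 1.3% of all genes (0.666% higher and 0.636% lower). At an unadjusted p under 0.05 there were 4 members (*Hoxb3*, *Hoxb5*, *Hoxb2* and *Hoxb9*), all higher in cKO, against 11.4% of all genes tested (21.2% in either direction). DESeq2, limma-voom and edgeR's likelihood ratio test each called *Hoxb3* and no other member, and none of them put a member past the DE thresholds.

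The call of *Hoxb3* was read beside the fat markers. In cKO replicate 4, where the fat marker sum was within the Ctrl range, *Hoxb3* was still at 42.6 CPM, above the highest Ctrl library at 34.9 CPM. With cKO replicate 4 as the single cKO library the log2 fold change was 0.35 (edgeR adjusted p = 0.275), a fit in which that library was assumed to vary as the Ctrl libraries do, and with the fat marker score as a covariate it was 0.35 (adjusted p = 0.157). The call was thus lost in both fits. With any single library left out, the largest adjusted p was 0.0155. A further limit is that the antisense transcript *Hoxb3os* covers 52.9% of the exon bases of *Hoxb3* on the other strand. The library kit keeps strand, but the strand setting of the counting is not given in the sources used here, and *Hoxb3os* was not analysed here.

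**Figure D2:**
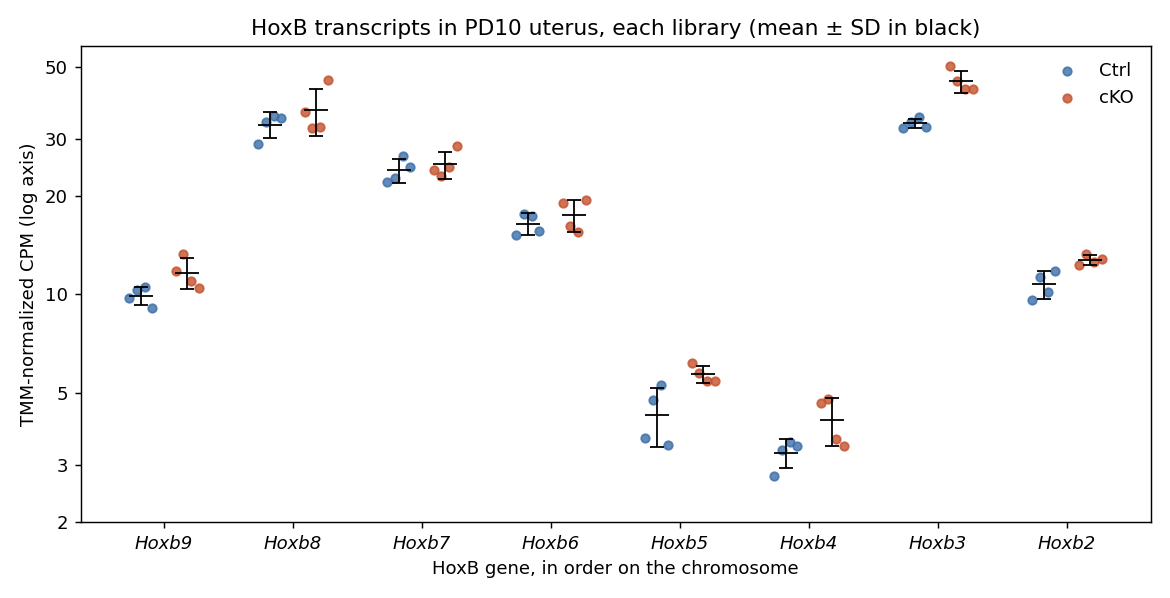
TMM-normalized CPM (vertical log axis) of the 8 tested HoxB genes in chromosomal order (horizontal axis), with a point for each of 4 Ctrl (blue) and 4 cKO (orange) libraries and the mean ± SD in black. The cKO points of Hoxb3 (42.6 to 50.1 CPM) lie above all its Ctrl points (32.5 to 34.9 CPM), Hoxb5 and Hoxb2 also separate by a smaller gap, and the points of the other 5 genes overlap.

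*Hoxb5* and *Hoxb2* also separated between the genotypes without passing the test across all genes. *Hoxb5*, known for a role in the enteric nervous system and in positioning of the shoulder girdle, was at 3.63, 4.76, 5.28 and 3.46 CPM in Ctrl and 6.17, 5.76, 5.42 and 5.43 CPM in cKO. The gap between the highest Ctrl and the lowest cKO library was small, 5.28 against 5.42 CPM. Its log2 fold change was 0.42 ± 0.15 (SE; 95% interval 0.09 to 0.75; edgeR adjusted p = 0.138). This was close to the value of *Hoxb3* in size, while the Ctrl libraries varied more (coefficient of variation 20.6% for *Hoxb5* against 3.44% for *Hoxb3*). *Hoxb2*, which acts in rhombomere and cranial nerve patterning, was at 9.59, 11.3, 10.2 and 11.8 CPM in Ctrl and 12.3, 13.3, 12.6 and 12.9 CPM in cKO. The log2 fold change was 0.25 ± 0.093 (SE; 95% interval 0.045 to 0.45; edgeR adjusted p = 0.148). *Hoxb3os* lies opposite 27.3% of the *Hoxb2* exon bases. In all, 3 of the 8 tested members had every cKO library above every Ctrl library, against 5.9% of all genes, and none had every cKO library below, against 6.43% (12.3% in either direction).

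*Hoxb4* and *Hoxb9* were high in some cKO libraries. *Hoxb4*, a regulator of blood stem cells and of the cervical vertebrae, was at 2.78, 3.33, 3.53 and 3.43 CPM in Ctrl and 4.66, 4.79, 3.60 and 3.43 CPM in cKO. The values of cKO replicates 1 and 2 were the highest, that of replicate 3 was just above the highest control, and that of replicate 4 lay inside the Ctrl range. The log2 fold change was 0.33 ± 0.16 (SE; 95% interval -0.01 to 0.68; edgeR adjusted p = 0.249). *Hoxb9*, the posterior member with known roles in the thoracic skeleton and the mammary gland, was at 9.75, 10.3, 10.5 and 9.11 CPM in Ctrl and 11.8, 13.4, 11.03 and 10.4 CPM in cKO. Here cKO replicates 1 to 3 lay above all Ctrl libraries and cKO replicate 4 did not. The log2 fold change was 0.24 ± 0.10 (SE; 95% interval 0.014 to 0.46; edgeR adjusted p = 0.207).

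For *Hoxb6*, *Hoxb7* and *Hoxb8*, neighbours within the cluster, the log2 fold changes were 0.06 to 0.14 over all libraries, and single libraries moved them. *Hoxb8*, which acts in the spinal cord and in microglia, was at 28.9, 33.7, 35.4 and 34.9 CPM in Ctrl and 36.2, 32.4, 32.7 and 45.5 CPM in cKO. The highest value belonged to cKO replicate 4, the library with the lowest fat marker sum among the cKO, and 2 cKO libraries lay inside the Ctrl range. The log2 fold change was 0.14 ± 0.11 (SE; 95% interval -0.091 to 0.38; edgeR adjusted p = 0.474). *Hoxb7* ranged from 22.1 to 26.7 CPM in Ctrl and from 23.0 to 28.5 CPM in cKO, with a log2 fold change of 0.06 (95% interval -0.13 to 0.25). *Hoxb6* ranged from 15.2 to 17.7 CPM in Ctrl and from 15.5 to 19.5 CPM in cKO, with a log2 fold change of 0.09 (95% interval -0.12 to 0.30). Both groups of both genes overlapped widely, and cKO replicate 4 was again the highest library. With cKO replicate 4 as the single cKO library the log2 fold change was 0.46 for *Hoxb8*, 0.25 for *Hoxb7* and 0.25 for *Hoxb6*, and without that library it was 0.026, -0.0064 and 0.039. Without Ctrl replicate 1 it was 0.082, 0.021 and 0.052. Over the fits that each left out 1 library it ranged from 0.026 to 0.20 for *Hoxb8*, from -0.0064 to 0.11 for *Hoxb7* and from 0.039 to 0.14 for *Hoxb6*. With the fat marker score as a covariate *Hoxb8* had the highest value of the 8 members (0.41, against 0.35 for *Hoxb3*), *Hoxb7* was at 0.23 and *Hoxb6* at 0.21, while *Hoxb4* was at 0.055 and *Hoxb9* at 0.044. The order of the members by fold change thus depends on the fat marker score and on that library. With all libraries, the intervals leave room for changes of up to 1.302-fold (*Hoxb8*), 1.19-fold (*Hoxb7*) and 1.23-fold (*Hoxb6*).

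**Figure D3:**
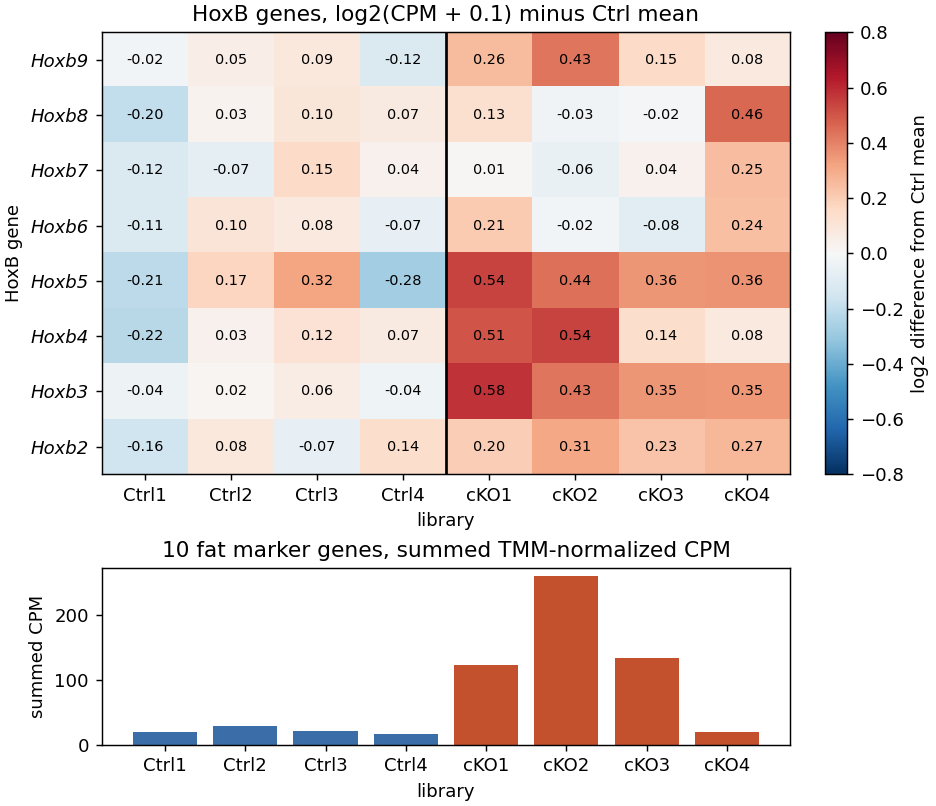
Upper panel, log2(CPM + 0.1) of each tested HoxB gene (rows) minus its Ctrl mean, in each of the 8 libraries (columns), with red above and blue below 0 and the value printed in each cell; lower panel, summed TMM-normalized CPM of the 10 fat marker genes in the same libraries. Hoxb2, Hoxb3, Hoxb4, Hoxb5 and Hoxb9 are above their Ctrl mean in all 4 cKO libraries, Hoxb3 by 0.35 to 0.58, cKO4 is highest for Hoxb6, Hoxb7 and Hoxb8 (0.24 to 0.46), and its fat marker sum of 19.1 CPM is within the Ctrl range.

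The 2 members at the ends of the cluster were all but silent. *Hoxb13*, the posterior gene known from prostate and distal gut, had 0 counts in 7 libraries and 1 count in cKO replicate 2. *Hoxb1*, the anterior gene known from the hindbrain, had 0 counts in the 4 Ctrl libraries and in cKO replicate 4, and 2, 1 and 1 counts in cKO replicates 1 to 3. These values lie at or under the limit that a count of 0 allows, 3 counts per library or 0.0818 to 0.119 CPM, so that a difference between the genotypes was not detectable at this depth and no fold is given.

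The direction was the same for the tested members. All 8 had a log2 fold change above 0, against 50.1% of all genes tested, with a median of 0.24 against 0.00044 over all genes. The genes share libraries and a locus and are no replicates of each other. The summed HoxB level was 124 to 144 CPM in Ctrl and 148 to 168 CPM in cKO. The make-up of that sum was described by shares of the counts. The share of *Hoxb3* in all HoxB counts was 24.0% to 26.1% in Ctrl, 30.4%, 29.3% and 28.9% in cKO replicates 1 to 3, and 25.3% in cKO replicate 4, which was inside the Ctrl range. *Hoxb6*, *Hoxb7* and *Hoxb8* together gave 53.2% to 55.4% of the counts in Ctrl, 48.3%, 46.5% and 49.1% in cKO replicates 1 to 3, and 55.6% in cKO replicate 4. The replicates whose shares lay outside the Ctrl range by the most were therefore those with the high fat marker sums, and the part of the fat markers in this was not tested. All 8 members had the upper bound of the 95% interval below a log2 fold change of 1, so that a 2-fold rise lay outside the interval of every tested member.

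To ask whether members next to each other on the chromosome changed by different amounts, the log2 ratio of each of the 7 neighbouring pairs was compared between genotypes. No pair had an exact p under 0.05. With 70 arrangements the smallest p is 0.0286, and a single pair among 7 cannot have an adjusted p under 0.2, so only the unadjusted p can be read. The largest difference was that of *Hoxb6* to *Hoxb5*, whose log2 ratio was 1.94 ± 0.20 in Ctrl and 1.60 ± 0.16 in cKO (SD, n = 4), a difference of -0.34 (two-sided exact permutation p = 0.0571, adjusted p = 0.40 over the 7 pairs). For the other pairs the difference was between -0.11 and 0.18, with exact p-values from 0.229 to 0.771. The log2 ratio of *Hoxb3* to *Hoxb2* was 0.18 higher in cKO (exact permutation p = 0.229). These ratios therefore neither show nor exclude a different response of *Hoxb3* and its neighbours.

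Next, the HoxB genes were set beside the other Hox clusters, which were measured in the same libraries. Among the HoxA genes tested, 5 of 10 were called higher and 2 lower, and the median log2 fold change was 1.16. Of all genes tested, 2.62% were called higher and 2.71% lower, and 0.666% were DE and higher. Of the HoxC genes 4 of 7 were called higher, with a median of 0.88, and of the HoxD genes 2 of 8 were called higher and 2 lower, with a median of 0.12. DE genes that were higher in cKO were *Hoxa2*, *Hoxa3*, *Hoxa5* and *Hoxa6* in HoxA, *Hoxc5*, *Hoxc9* and *Hoxc10* in HoxC, and *Hoxd12* and *Hoxd13* in HoxD, so that HoxB was the cluster without one. The genes called lower were posterior genes, *Hoxa10* at -0.62, *Hoxa11* at -0.49, *Hoxd10* at -0.26 and *Hoxd11* at -0.54 on the log2 scale. HoxB has no gene of these paralogue groups. Over paralogue groups 2 to 8, 5 of 6 tested HoxA genes, 1 of 7 HoxB genes, 2 of 4 HoxC genes and 0 of 3 HoxD genes were called higher.

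**Figure D4:**
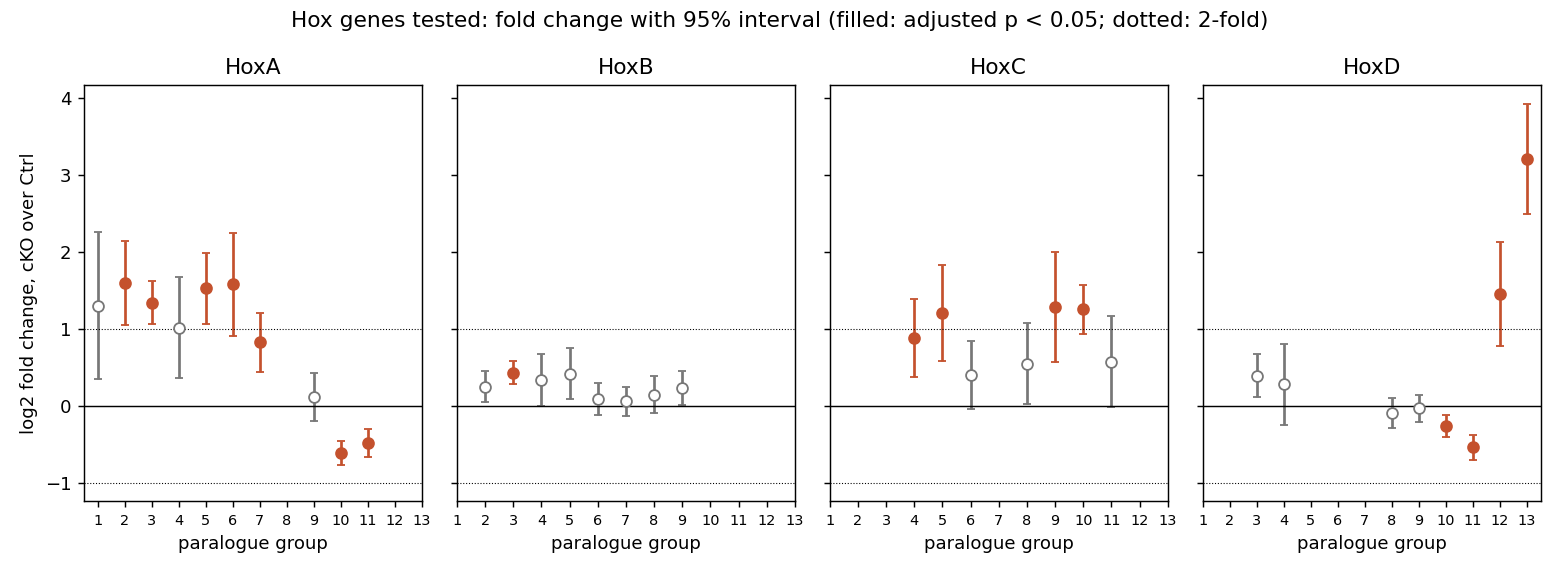
Log2 fold change of cKO over Ctrl (vertical axis) with 95% interval for each tested Hox gene by paralogue group (horizontal axis) in the 4 clusters, filled where the adjusted p was under 0.05 and with dotted lines at 2-fold. HoxB values lie between 0.06 and 0.43 with 1 filled point (Hoxb3), HoxA genes of groups 2 to 7 lie between 0.83 and 1.60, and Hoxd13 is highest at 3.21.

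The difference between a HoxB gene and its paralogue was compared directly, as the log2 ratio of the pair within each library, for the 16 pairs in which both genes were tested. This comparison was chosen after the values were seen. In 5 pairs the ratio did not overlap between the genotypes and was lower in cKO, with an exact permutation p of 0.0286, the smallest the design allows, and an adjusted p of 0.0914 over the 16 pairs, so that none passed the correction. An adjusted p under 0.05 would have needed the smallest p in at least 10 of the 16 pairs. For *Hoxb3* and *Hoxa3* the log2 ratio was 3.41, 3.28, 3.70 and 3.61 in Ctrl and 2.77, 2.68, 2.53 and 2.48 in cKO. The 4 cKO libraries lay below all Ctrl libraries, by -0.88 on average, since *Hoxa3* was at 2.96, 3.40, 2.60 and 2.58 CPM in Ctrl and 7.26, 6.96, 7.33 and 7.57 CPM in cKO. The differences in log2 ratio were -1.20 for *Hoxb2* and *Hoxa2*, -1.03 for *Hoxb5* and *Hoxa5*, -1.32 for *Hoxb6* and *Hoxa6*, and -0.83 for *Hoxb9* and *Hoxc9*. The paralogues in these pairs started from low control levels, such as 0.59 ± 0.18 CPM for *Hoxa2* against 10.7 ± 1.0 CPM for *Hoxb2* (SD, n = 4).

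Of the 16 ratios 11 were lower and 5 higher in cKO. The 6 lower ratios outside those 5 pairs differed by -0.73 (*Hoxb7* and *Hoxa7*), -0.68 (*Hoxb5* and *Hoxc5*), -0.55 (*Hoxb4* and *Hoxa4*), -0.48 (*Hoxb4* and *Hoxc4*), -0.33 (*Hoxb8* and *Hoxc8*) and -0.27 (*Hoxb6* and *Hoxc6*), with exact permutation p-values from 0.0571 to 0.371. The other 5 were higher. *Hoxd3* had a log2 fold change of 0.39 ± 0.13 (SE; edgeR adjusted p = 0.106), and the log2 ratio of *Hoxb3* to *Hoxd3* differed by 0.06 between genotypes (exact permutation p = 0.743). On their own strand, 62.3% of the exon bases of *Hoxd3* and 52.3% of those of *Hoxd4* are overlapped by other annotated transcripts, which include those of the other of these genes, so that the counts of *Hoxd3* and *Hoxd4* are uncertain. The ratio of *Hoxb4* to *Hoxd4* differed by 0.10 (p = 0.686 in the exact permutation test) and that of *Hoxb9* to *Hoxa9* by 0.12 (exact permutation p = 0.457). The ratios of *Hoxb8* to *Hoxd8* and of *Hoxb9* to *Hoxd9* were higher in cKO by 0.24 and 0.26 on the log2 scale, with exact permutation p-values of 0.314 and 0.0571.

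RNAs that lie inside the HoxB locus and genes around it were counted as well. The RefSeq annotation places 19 genes in the span, of which 14 were counted, the 10 members and 4 others. *Gm53*, a long non-coding RNA before *Hoxb9*, was at 3.72, 2.78, 3.75 and 3.43 CPM in Ctrl and 4.93, 4.75, 4.81 and 4.13 CPM in cKO. All cKO libraries lay above all Ctrl libraries, with a log2 fold change of 0.44 ± 0.14 (SE; edgeR adjusted p = 0.0921), which did not pass. *Gm11538* had 0 to 6 counts per library and was not tested. Outside the span, none of the 9 tested genes among the 5 nearest protein-coding genes on each side was called, with log2 fold changes from -0.51 (*Skap1*) to 0.16 (*Snx11*) and a median of -0.034. At an unadjusted p under 0.05 there were 1 higher and 1 lower, close to the share of all genes at that threshold (21.2%), and DESeq2 and limma-voom also called 0. *Skap1*, the neighbour after *Hoxb1*, was lower in every cKO library than in any Ctrl library (0.81 to 1.02 against 1.12 to 1.55 CPM; edgeR adjusted p = 0.184). *Snx11* separated the other way (20.4 to 22.3 against 18.3 to 19.2 CPM; edgeR adjusted p = 0.206). Of all genes tested, 6.43% separated as lower and 5.9% as higher in cKO.

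The cluster also holds the genes of 2 microRNAs that are known to act on Hox transcripts. They are shown with the seed (bases 2 to 8) in capitals, as RefSeq gives the mature sequences, miR-196a-5p at chr11:96265187-96265208 and miR-10a-5p at chr11:96317186-96317208 on the plus strand.
mmu-miR-196a-5p: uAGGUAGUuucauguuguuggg
mmu-miR-10a-5p: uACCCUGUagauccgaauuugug
The libraries were made from mRNA and do not measure mature microRNAs. Counts over the *Mir196a-1* precursor were 24 to 41 per library, with a log2 fold change of 0.13 (95% interval -0.40 to 0.66), and those over *Mir10a* were 0 to 4, too few to test. A perfect match to the miR-196a-5p seed (ACTACCT) was found in the 3′UTR of *Hoxb1*, *Hoxb6* and *Hoxb7* among the 10 members, against 6.91% of the 3′UTRs of 20834 genes, whose lengths differ. The 3′UTR of *Hoxb8* held no perfect seed match but did hold, at chr11:96284888-96284909, the closest match to the whole microRNA. It is printed with the bases opposite the seed in capitals.
Hoxb8 site: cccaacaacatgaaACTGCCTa
Of its 22 bases, 21 are complementary to miR-196a-5p by Watson-Crick pairing, and 1, a G opposite a U of the seed, is not. G:U wobble pairs were not counted as complementary. No other gene of the 20834 had as many complementary bases at a site. The miR-10a-5p seed match (ACAGGGT) was found in the 3′UTR of 1 member, *Hoxb3*, against 13.1% of all genes.

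Genes that act on Hox clusters or with HOX proteins were read from lists. None of the 12 PRC2 genes was called in edgeR's quasi-likelihood test, with a median log2 fold change of -0.041. At an unadjusted p under 0.05 there was 1, against 21.2% of all genes. This was *Epop*, a PRC2 accessory subunit, which was also called by DESeq2 and by edgeR's likelihood ratio test but not by limma-voom. Among genes of PRC1, the complex that reads the PRC2 mark, *Bmi1* rose from 64.8 ± 2.1 to 117 ± 9.1 CPM (SD, n = 4), a log2 fold change of 0.85 (edgeR adjusted p = 1.48e-05). Of 8 tested activators of Hox genes, including the retinoic acid receptors and the histone methyltransferase gene *Kmt2a*, none was called in edgeR's quasi-likelihood test, with 2 at an unadjusted p under 0.05, against 21.2% of all genes. *Rarb*, which DESeq2 and edgeR's likelihood ratio test called and limma-voom did not, was at 7.60 ± 1.1 CPM in Ctrl and 10.6 ± 1.4 CPM in cKO (SD, n = 4; edgeR adjusted p = 0.0589). Of 9 cofactors that bind DNA with HOX proteins, *Meis1* was called higher (172 to 206 CPM, log2 fold change 0.26) and *Pknox1* and *Pknox2* were called lower (-0.25 and -0.43), against 2.62% of all genes called higher and 2.71% called lower.

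The genes whose profile over the 8 libraries was most like that of *Hoxb3* were found among 14297 genes by the root mean square difference of log2(CPM + 0.1), centred per gene. They were *Rrad* (0.0615), *BC064078* (0.0661), *Kcnh3* (0.0729), *Fcho1* (0.0730) and *Xrcc3* (0.0731). Each had, as this measure selects, a difference of the size of that of *Hoxb3*, with log2 fold changes from 0.36 to 0.45. No other HoxB gene was among them.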

How the data were processed

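RNA was sequenced from whole uteri at PD10 (4 Ctrl and 4 cKO libraries, TruSeq stranded mRNA kit). Per the labels and the methods, the authors trimmed reads with Trimmomatic, checked them with FastQC, used HISAT2 for alignment to GRCm38, and obtained gene counts from featureCounts. Raw counts per Entrez gene were deposited for each library and were used here. The annotation release, the strand setting and the treatment of multi-mapping reads are not given in the sources used here. The authors' deposited edgeR table was used only to pair identifiers with symbols. Its other columns hold fold changes, CPM and p-values, which were not used, nor were the deposited normalized counts. RefSeq named further identifiers (25440 in all).

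Testing was done in R 4.3.3 with edgeR 4.0.16 on genes above 0.2 CPM in 4 libraries or more (TMM, glmQLFit and glmQLFTest with robust = TRUE), and p-values were adjusted over all genes by the Benjamini-Hochberg method. Levels are TMM-normalized CPM. SE is the log2 fold change divided by the square root of F. Exact permutation tests are two-sided, on log2(CPM + 0.1). The limit that a count of 0 allows is 3 counts per library and covers counting error only. Limma 3.58.1 and DESeq2 1.42.0 served as alternatives. The fit was tested on simulated counts of 16529 genes, where 21 of 50 genes changed by 1.3-fold and 48 of 50 changed by 2-fold were recovered, with 12 false calls in all. No 2 libraries agreed within sampling noise.

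Replicate numbers were not taken as pairs, since the correlations of same-numbered libraries were 0.0236, 0.1127, -0.0035 and 0.1937. A broader grouping was seen across the genotypes. Replicates 1 and 2 of either genotype correlated negatively with replicates 3 and 4 of the other (-0.0371 to -0.1895). Within replicates 1 and 2, and within 3 and 4, the correlations between genotypes were -0.0035 to 0.1937. The labels give no reason for this grouping, and it was not part of any fit. Homeoboxes, transcripts and 3′UTRs came from GENCODE M21, promoters and microRNAs from RefSeq. Genes were named by rule: the members, their locus and its 5 nearest protein-coding genes on each side, *Ezh2*, of each list the DE genes or, where it had none, the 2 called genes with the largest change, and the 5 profiles most like *Hoxb3*. *Epop*, *Rarb*, *Kmt2a*, *Pknox1*, *Tnnt3*, *Hoxa10*, *Hoxa11*, *Hoxd10*, *Hoxd11* and the Hox paralogues in the pairs were named after their values were seen. So were the markers *Foxl2*, *Inha*, *Gdf9*, *Emx2*, *Esr1*, *Col1a1*, *Vim*, *Pdgfra*, *Dcn* and *Lum*. The members and the gene lists were chosen with earlier results of these data known. Some genes and sequences are not reported here.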

Additional observations from a re-analysis of the deposited data

How the results depend on the processing

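The number of HoxB genes called in edgeR was 1 (*Hoxb3*) in every setting that tested against no change except with the fat marker score as a covariate, where it was 0, and with cKO replicate 4 as the single cKO library, where it was 0. The cause was not tested. With the 2-fold threshold inside the test no member passed, and the number of DE members was 0 in all settings. *Hoxb3* was called in 19 of 21 settings, with log2 fold changes from 0.35 to 0.46. The setting with a replicate block gave a log2 fold change of 0.43 (adjusted p = 0.0031) for *Hoxb3* and changed no call of a member, while calls over all genes went from 889 to 1240, and Ctrl replicate 1 correlated best with cKO replicate 2 rather than with its own number. With each library left out in turn, the number of members called stayed at 1, the log2 fold change of *Hoxb7* ranged from -0.0064 to 0.11, and the number of paralogue pairs with an exact p under 0.05, 5 with all libraries, ranged from 3 (without Ctrl replicate 2 or 3) to 6. The log2 ratio differences ranged from -0.086 to 0.029 for *Hoxb7* to *Hoxb6*, from -0.011 to 0.18 for *Hoxb5* to *Hoxb4*, from -0.029 to 0.25 for *Hoxb9* to *Hoxb8* and from -0.047 to 0.21 for *Hoxb4* to *Hoxd4*. The paralogue alternatives were chosen after the data were seen.

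Calls over all genes tested were 1512 with the likelihood ratio test, 1510 with DESeq2, 115 with the fat marker score, 35 with cKO replicate 4 alone (16122 genes tested, against 16658) and 22 when the 2-fold threshold was inside the test. They ranged from 409 (without Ctrl replicate 1) to 1812 (without cKO replicate 4) when a library was left out (16759 to 16844 genes tested). In the simulated comparison of cKO and Ctrl, 21 of 50 genes changed by 1.3-fold were recovered, with 12 false calls over all simulated fold sizes. Smaller changes, such as those of *Hoxb2* and *Hoxb9*, were not simulated, so that a missed call of these members says little.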

Other observations

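A gene outside the naming rule, chosen after its values were seen, lies beyond the flanking genes of the HoxB locus. *Igf2bp1*, an RNA-binding protein gene of fetal tissues, was at 0.716 ± 0.18 CPM in Ctrl and 5.44 ± 0.97 CPM in cKO (SD, n = 4), with a log2 fold change of 2.91 ± 0.21 (SE; edgeR adjusted p = 1.36e-05). The 9 tested protein-coding genes next to the HoxB cluster had log2 fold changes from -0.51 to 0.16 and none was called.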
